A study of Mus musculus with 18 samples.

Results

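The transcripts described here are those of the BCL2 family genes that are not classical targets of p53, measured by RNA sequencing in cell lines from mouse malignant peripheral nerve sheath tumors (MPNSTs). Members were chosen by gene name and number 10 of the 35275 genes in the count table: the anti-apoptotic genes Mcl1, Bcl2l1, Bcl2l2 and Bcl2, the effector gene Bak1, and the BH3-only genes Bcl2l11, Bid, Bad, Bmf and Bik. BCL2 family proteins set whether the outer membrane of the mitochondrion stays intact. Anti-apoptotic members hold in check the effectors BAX and BAK, which form pores and release cytochrome c, and the BH3-only proteins carry stress signals by binding the anti-apoptotic members or by activating the effectors directly. In many solid tumors, MCL1 and BCL-XL, the product of Bcl2l1, are the anti-apoptotic members on which survival most often rests.

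The study asked how loss of Cdkn2a compares with loss of p53 (Trp53) in Nf1-deleted MPNST cells. Tumors were raised by injecting adenovirus that carried Cas9, under a CMV promoter that is not specific to a cell type, and guide RNAs into the sciatic nerve of wild-type 129 Sv/Jae mice, and a line was grown from each tumor. The Nf1/p53 double knockout (dKO) has both alleles of Nf1 and p53 deleted according to the labels, and the Nf1/Cdkn2a dKO has both alleles of Nf1 and Cdkn2a deleted, so both genotypes lack Nf1 and no line with Nf1 deleted alone was compared here. There were 3 lines per genotype and 3 cultures per line, 18 cultures in all, grown as untreated, passaged cultures in DMEM with 10% serum. The labels call the cells mesenchymal.

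Each culture had 19560535 to 28312207 counts (median 23149777), and the summed counts of a line reached 65206479 to 73065228. Trp53 RNA was 58.67 to 94.13 CPM (a count scaled to the size of its library, with TMM to correct for library make-up) in the Nf1/p53 lines, where the guide targets it, and 184.8 to 246.9 CPM in the Nf1/Cdkn2a lines. It was lower in the former (log2 fold change 1.62, Nf1/Cdkn2a over Nf1/p53, adjusted p = 0.0361, edgeR, and 0.0436 to 0.124 with 1 line left out). Cdkn2a RNA (42.91 to 363 CPM against 168.8 to 391.6 CPM) and Nf1 RNA (27.72 to 69.99 against 12.74 to 38.25 CPM) overlapped between the genotypes, so their level did not check the labels. The 6 mesenchymal markers summed to 8067 to 21980 CPM in every line, while 5 Schwann cell markers summed to 1.22 to 3.42 CPM in 5 lines and to 68.2 CPM in Nf1/p53 line 2, nearly all of it Ngfr, and the defining gene Sox10 stayed at or below 0.0990 CPM. The 4 skeletal muscle markers summed to 25.8 to 319 CPM in the Nf1/p53 lines and to 0.0289 to 0.529 CPM in the Nf1/Cdkn2a lines, and none of the 4 overlapped between the genotypes. Myf5 was called (0, 0 and 1 counts in the Nf1/Cdkn2a lines, adjusted p = 0.00672, edgeR, and 0.0194 to 0.0795 with 1 line left out), and Myod1 stood at 203.6 CPM in Nf1/p53 line 3 and at 0 counts in all Nf1/Cdkn2a lines. The same Nf1/p53 line 3 had the highest sum of 12 proliferation genes, at 3901 CPM against 2127 to 2543 CPM in the other 5 lines. That line was not the highest for Ccna2, Cdk1 or Rrm2, and Rrm2 was lowest there (169 CPM). Leukocyte, endothelial and epithelial markers summed to at most 8.14, 2.02 and 1.44 CPM, with Tek, an endothelial receptor, called lower (0.412 to 1.079 against 0.0642 to 0.0782 CPM, adjusted p = 0.0465, edgeR, and 0.0606 to 0.155 with 1 line left out). Tek had only 4, 5 and 5 counts in Nf1/Cdkn2a lines 1 to 3. Of the 3 tested endothelial markers 2 were lower and 1 higher, and the endothelial sums overlapped between the genotypes (1.28 to 2.02 against 0.641 to 1.93 CPM). The part of these gene groups in the differences given below was not tested. In bulk RNA, fewer cells of a type and less RNA per cell cannot be told apart.

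For the genotype comparison the counts of the cultures of a line were added, so that n = 3 lines per genotype, and a positive log2 fold change means a higher level in the Nf1/Cdkn2a dKO. A gene was called at an adjusted p under 0.05 in edgeR's quasi-likelihood test, adjusted over all 15207 genes that passed the filter on low counts. Of the 10 members, 9 passed that filter and 0 were called, while 274 genes, 1.8% of those tested, were called across the table. Of the 9 members 5 had an unadjusted p under 0.05, as had 3400 of all 15207 genes tested. With a line left out, the count over all 10 members was 3 (without Nf1/Cdkn2a line 1 or 3), 4, or 6 (without Nf1/p53 line 1). In the last of these fits Bik passed the filter and was 1 of the 6. Over all genes these fits gave 2668 to 3391 with an unadjusted p under 0.05, of 15549 to 15872 tested. The 3 lines of one genotype lay wholly above the 3 of the other for 5 of the 9 members, against 31.4% of all genes tested. DESeq2 on the same 6 lines called 3 members (Bcl2l1, Bcl2l2 and Bid) and 11.8% of all genes to which it gave an adjusted p. On 18 cultures, limma-voom treating line as random called 4 members, adding Bcl2l11, and 16.6% of all genes. Taking the 18 cultures as separate samples, which they are not, edgeR called 7 members and 46.5% of all genes and DESeq2 7 and 38.9%. The median log2 fold change was -0.10 over the 9 members and -0.02 over all genes tested, with 4 members positive and 5 negative.

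**Figure D1:**
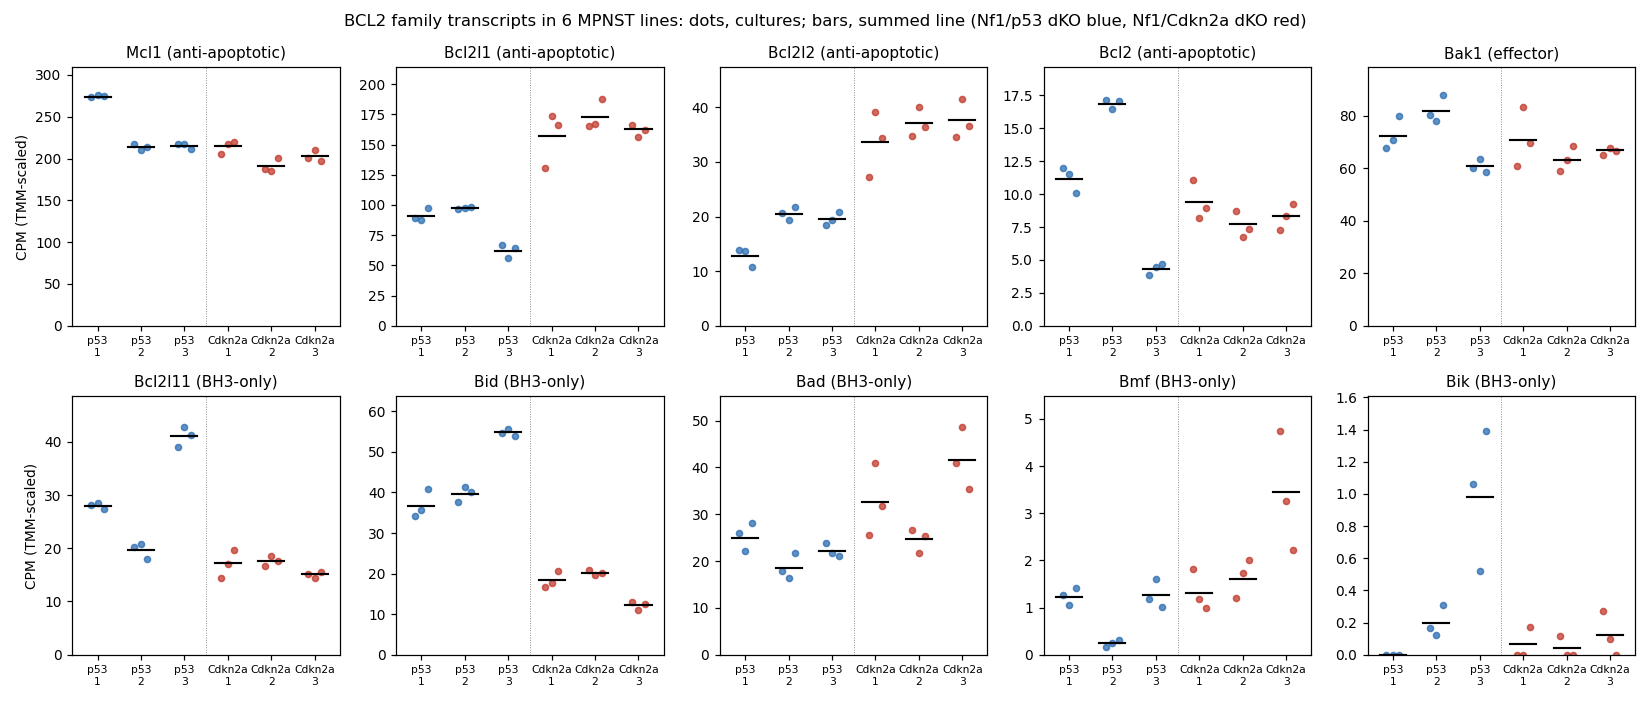
Level of the 10 members in CPM (linear axis from 0) in each of the 6 lines, with dots for the 3 cultures of a line and black bars for the summed line. Bcl2l1 and Bcl2l2 sit higher in all 3 Nf1/Cdkn2a lines (red) and Bid and Bcl2l11 higher in all 3 Nf1/p53 lines (blue), and Bcl2 and Bcl2l11 spread more widely among the Nf1/p53 lines than among the Nf1/Cdkn2a lines.

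Mcl1 (ENSMUSG00000038612, GRCm38 chr3:95658788-95663176, plus strand) encodes a short-lived anti-apoptotic protein that binds BAK and BIM. Its level was 273.3, 213.5 and 215.3 CPM in Nf1/p53 lines 1, 2 and 3 and 214.9, 191 and 203 CPM in Nf1/Cdkn2a lines 1, 2 and 3. Nf1/p53 line 1 was the highest, and the genotypes overlapped, since Nf1/Cdkn2a line 1 lay between Nf1/p53 lines 2 and 3. The genotype means were 234 ± 34.0 and 203 ± 12.0 CPM (SD, n = 3 lines each), a log2 fold change of -0.21 (SE 0.15) that was not called (adjusted p = 0.467, edgeR) and was -0.08 without Nf1/p53 line 1.

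Bcl2l1 (ENSMUSG00000007659, chr2:152780668-152831728, minus strand) encodes BCL-XL, which binds BAX, BAK and most BH3-only proteins. Its level was 90.76, 97.38 and 62.07 CPM in Nf1/p53 lines 1 to 3 and 157, 173 and 162.5 CPM in Nf1/Cdkn2a lines 1 to 3. The lowest Nf1/Cdkn2a line was above the highest Nf1/p53 line, and Nf1/p53 line 3 was the lowest of all. The means were 83.4 ± 18.8 and 164 ± 8.10 CPM (SD, n = 3), a ratio of 1.97 and a log2 fold change of 0.98 (SE 0.19), which missed the threshold in edgeR (adjusted p = 0.0584) and passed it in DESeq2 on the 6 lines (adjusted p = 0.00298). Leaving out single lines gave log2 fold changes from 0.81, without Nf1/p53 line 3, to 1.12, without Nf1/p53 line 2.

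Bcl2l2 (ENSMUSG00000089682, chr14:54883377-54888234, plus strand) encodes BCL-W, a close relative of BCL-XL. Its level was 12.73, 20.54 and 19.5 CPM in Nf1/p53 lines 1 to 3 and 33.56, 37.1 and 37.58 CPM in Nf1/Cdkn2a lines 1 to 3. All Nf1/Cdkn2a lines were above all Nf1/p53 lines, and Nf1/p53 line 1 was the lowest. The means were 17.6 ± 4.24 and 36.1 ± 2.20 CPM (SD, n = 3), a ratio of 2.05 and a log2 fold change of 1.04 (SE 0.22) with an adjusted p of 0.0650 in edgeR and 0.00312 in DESeq2 on the 6 lines. Left-out lines moved the log2 fold change between 0.85 and 1.18. Of its annotated exon bases, 13.3% are shared with Gm20521 on the same strand, which had 0 counts in every line, so reads of that stretch cannot be assigned with certainty.

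Bcl2 (ENSMUSG00000057329, chr1:106538178-106714274, minus strand), the founding anti-apoptotic member, was at 11.12, 16.89 and 4.345 CPM in Nf1/p53 lines 1 to 3. In Nf1/Cdkn2a lines 1 to 3 it was at 9.433, 7.702 and 8.336 CPM. The highest and the lowest line were both Nf1/p53 lines, with all Nf1/Cdkn2a lines between them. The log2 fold change was -0.35 (SE 0.47, adjusted p = 0.700, edgeR), and its sign turned to 0.15 without Nf1/p53 line 2.

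**Figure D2:**
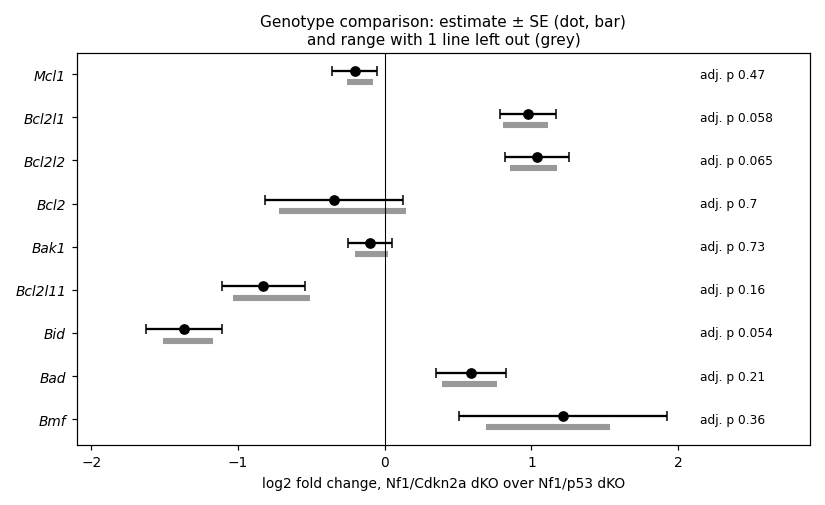
Log2 fold change of the 9 tested members in the Nf1/Cdkn2a dKO over the Nf1/p53 dKO, from edgeR on 3 lines per genotype, with the standard error (bars), the range of the estimate when 1 line is left out (grey) and the adjusted p at the right. The grey ranges of Bcl2l1 (0.81 to 1.12), Bcl2l2 (0.85 to 1.18) and Bid (-1.51 to -1.17) do not reach 0, and those of Bcl2 and Bak1 cross it. The lines of the genotypes separate for Bcl2l1, Bcl2l2 and Bid, so leaving out 1 line cannot reverse their direction. None of these was called with a line left out (adjusted p = 0.0673 to 0.174, edgeR).

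Promoter windows are printed for 4 of the 5 members whose lines separated, chosen after their values were seen, and Bmf was left out. RefSeq windows (GRCm38.p6, 250 bases before to 50 after a start site) were searched on both strands for 4 motifs. These were the E2F motif (TTTCCCGC, TTTCGCGC, TTTGCCGC or TTTGGCGC), the FOXO motif (ATAAACA or GTAAACA), the GC box bound by Sp1 (GGGCGG) and the p53 half-site. RefSeq gave 15 windows for 9 members, and none was matched for Bik. Sequences run 5′ to 3′ on the strand of the gene, positions count from the first transcribed base as 0, capitals mark a match to any of the 4 motifs, and no matches overlapped in these windows. The window printed for Bcl2l1, 1 of its 3, is the only member window with an E2F match (position -145), and 2.26% of all 32851 mouse windows hold one. The first Bcl2l11 window is the only one with a FOXO match (position -227), against 7.97% of all windows. The p53 half-site matched in 1 Bmf window alone (position -213), against 8.36% of all windows. GC boxes, in 35.7% of all windows, matched 3 times each in the printed Bid and Bcl2l11 windows, 1 time in that of Bcl2l2 and 0 times in that of Bcl2l1. Among the windows not printed they matched 7 times in that of Bcl2, 4 times in 1 of Bad and 3 times in the second of Bcl2l11. They matched 1 time each in that of Mcl1 and in 1 of Bmf. A match here is a description of letters and not evidence of binding.
Bcl2l1 (chr2:152830668-152830967, minus strand): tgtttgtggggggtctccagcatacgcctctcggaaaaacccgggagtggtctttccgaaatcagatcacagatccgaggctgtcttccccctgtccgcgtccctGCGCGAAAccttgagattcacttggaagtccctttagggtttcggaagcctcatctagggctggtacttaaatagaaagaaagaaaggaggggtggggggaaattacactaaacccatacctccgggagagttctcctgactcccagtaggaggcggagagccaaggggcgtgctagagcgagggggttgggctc
Bcl2l2 (chr14:54883175-54883474, plus strand): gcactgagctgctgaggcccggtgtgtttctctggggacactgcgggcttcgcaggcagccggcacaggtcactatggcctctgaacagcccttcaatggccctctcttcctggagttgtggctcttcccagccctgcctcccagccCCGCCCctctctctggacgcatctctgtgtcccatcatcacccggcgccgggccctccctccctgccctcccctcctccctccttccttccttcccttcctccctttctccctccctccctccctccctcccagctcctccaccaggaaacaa
Bcl2l11 (chr2:128125788-128126087, plus strand): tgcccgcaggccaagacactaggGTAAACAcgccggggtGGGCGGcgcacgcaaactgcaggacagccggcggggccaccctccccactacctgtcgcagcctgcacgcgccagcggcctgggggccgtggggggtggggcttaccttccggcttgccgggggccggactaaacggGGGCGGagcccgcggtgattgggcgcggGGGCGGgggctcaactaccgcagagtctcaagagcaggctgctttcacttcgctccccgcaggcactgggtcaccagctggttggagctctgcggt
Bid (chr6:120916775-120917074, minus strand): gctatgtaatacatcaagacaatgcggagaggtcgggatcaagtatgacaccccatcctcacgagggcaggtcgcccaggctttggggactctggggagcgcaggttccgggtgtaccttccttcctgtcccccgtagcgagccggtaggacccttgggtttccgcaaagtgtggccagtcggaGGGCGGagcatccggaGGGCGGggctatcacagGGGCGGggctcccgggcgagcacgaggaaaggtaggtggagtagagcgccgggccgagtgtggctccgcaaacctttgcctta

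Divided by the length of the annotated exons, levels of different members can be set side by side. On this scale Mcl1 was the highest member in every line, at 80.0, 62.5 and 63.0 CPM per kb in Nf1/p53 lines 1 to 3 and 62.9, 55.9 and 59.4 CPM per kb in Nf1/Cdkn2a lines 1 to 3. The place below it changed with genotype. Bak1 was next in all 3 Nf1/p53 lines (30.1, 34.1 and 25.3 CPM per kb, with Bcl2l1 at 19.8, 21.2 and 13.5). Bcl2l1 was next in all 3 Nf1/Cdkn2a lines (34.2, 37.7 and 35.4 CPM per kb, with Bak1 at 29.5, 26.3 and 27.8). Of the summed level of the 4 anti-apoptotic genes per kb, Mcl1 held 77.0, 69.3 and 77.4% in the Nf1/p53 lines and 59.5, 54.4 and 57.0% in the Nf1/Cdkn2a lines, and Bcl2l1 held 19.1, 23.6 and 16.6% against 32.4, 36.7 and 34.0%. Neither share overlapped between the genotypes. The length matters here: with the longest transcript in place of all exons, which shortens Bcl2l1 from 4586 to 2568 bases, the share of Mcl1 became 66.5, 57.8 and 67.8% against 46.9, 41.7 and 44.4%, Bcl2l1 was above Mcl1 in Nf1/Cdkn2a lines 2 and 3, and Bcl2l1 was above Bak1 in Nf1/p53 lines 1 and 2.

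**Figure D3:**
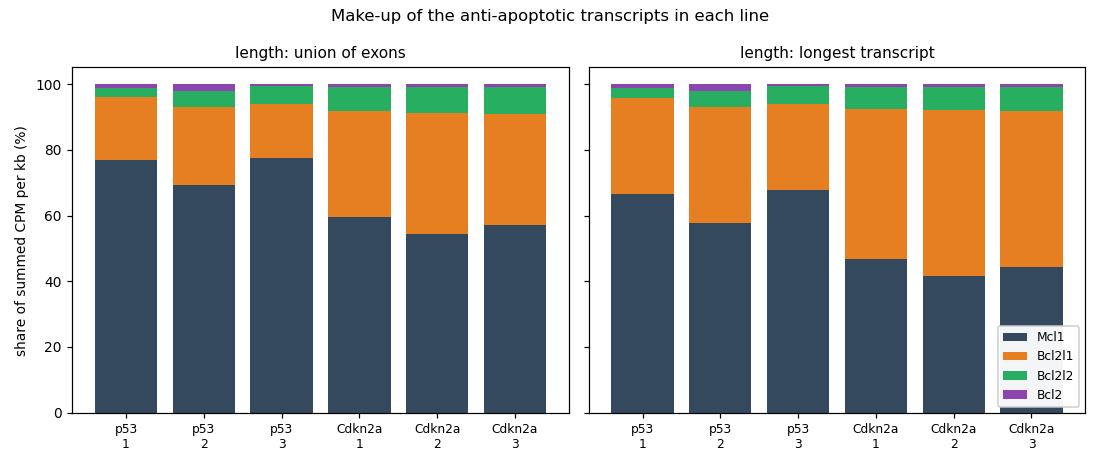
Share in percent of the summed level (CPM per kb) of Mcl1, Bcl2l1, Bcl2l2 and Bcl2 held by each gene in the 6 lines, with gene length taken as the union of exons (left) or the longest transcript (right). Mcl1 takes 69.3 to 77.4% in the Nf1/p53 lines and 54.4 to 59.5% in the Nf1/Cdkn2a lines on the left, and Bcl2l1 the larger part of the remainder.

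Bak1 (ENSMUSG00000057789, chr17:27019810-27029009, minus strand) encodes BAK, the effector that sits in the mitochondrial membrane. Its level was 72.45, 81.96 and 60.91 CPM in Nf1/p53 lines 1 to 3 and 70.92, 63.33 and 66.8 CPM in Nf1/Cdkn2a lines 1 to 3. The Nf1/Cdkn2a lines all lay within the range of the Nf1/p53 lines, and the highest line was only 1.35 times the lowest, the smallest spread of the 10 members over the 6 lines. The log2 fold change was -0.10 (SE 0.15, adjusted p = 0.734, edgeR), ranging from -0.20 to 0.02 with a line left out. Ggnbp1 overlaps 18.2% of its exon bases on the other strand at 0.966 to 3.54 CPM, and whether strand was used in counting is not stated. BAK's partner effector gene Bax, a p53 target, was at 66.86, 75.15 and 78.73 CPM against 130.5, 140.1 and 116.9 CPM and was higher in the Nf1/Cdkn2a dKO (log2 fold change 0.81, SE 0.14, adjusted p = 0.0465, edgeR), a call lost without any 1 line (adjusted p = 0.0717 to 0.151).

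Among the BH3-only genes, Bid (ENSMUSG00000004446, chr6:120891930-120916853, minus strand) encodes the protein that caspase-8 cleaves to link death receptors to mitochondria. Its level was 36.76, 39.72 and 54.78 CPM in Nf1/p53 lines 1 to 3 and 18.43, 20.21 and 12.15 CPM in Nf1/Cdkn2a lines 1 to 3. Every Nf1/p53 line was above every Nf1/Cdkn2a line, with Nf1/p53 line 3 the highest and Nf1/Cdkn2a line 3 the lowest. The means were 43.8 ± 9.67 and 16.9 ± 4.23 CPM (SD, n = 3), a ratio of 0.387 and a log2 fold change of -1.37 (SE 0.26). That is the lowest p of the 9 members and just misses the threshold in edgeR (adjusted p = 0.0540). DESeq2 on the 6 lines called it lower (adjusted p = 0.000519), as did edgeR scaled to raw total counts (adjusted p = 0.0462, with 2.78% of all genes called) or without the filter on low counts (adjusted p = 0.0467, with 1.72% called). Left-out lines gave -1.51 to -1.17, and the estimate was -1.17 both without Nf1/p53 line 3 (SE 0.25) and without Nf1/Cdkn2a line 3 (SE 0.24). Bcl2l13 overlaps 17.7% of the exon bases of Bid on the other strand. It was at 68.72, 59.08 and 75.32 CPM in Nf1/p53 lines 1 to 3 and 53.29, 61.14 and 43.71 CPM in Nf1/Cdkn2a lines 1 to 3. Its highest and lowest lines were those of Bid, though the genotypes overlapped. The level of Bid and its difference between genotypes are uncertain to the extent that reads were counted without strand.

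Bcl2l11 (ENSMUSG00000027381, chr2:128126038-128162547, plus strand) encodes BIM, which FOXO factors induce and ERK signaling marks for degradation. Its level was 27.88, 19.76 and 41.05 CPM in Nf1/p53 lines 1 to 3 and 17.21, 17.6 and 15.12 CPM in Nf1/Cdkn2a lines 1 to 3. The line ranges did not overlap, but Nf1/p53 line 2 was close to the Nf1/Cdkn2a lines and its cultures (17.98 to 20.89 CPM) overlapped theirs. The means were 29.6 ± 10.8 and 16.6 ± 1.33 CPM (SD, n = 3), a ratio of 0.563 and a log2 fold change of -0.83 (SE 0.28, adjusted p = 0.157, edgeR). The estimate was -0.51 without Nf1/p53 line 3 and -1.04 without Nf1/p53 line 2.

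Bad (ENSMUSG00000024959, chr19:6941861-6951899, plus strand) encodes a sensitizer that AKT and other kinases keep bound to 14-3-3 proteins. Its level was 25.02, 18.59 and 22.22 CPM in Nf1/p53 lines 1 to 3 and 32.58, 24.74 and 41.66 CPM in Nf1/Cdkn2a lines 1 to 3. Nf1/Cdkn2a line 3 was the highest, and Nf1/Cdkn2a line 2 was just under Nf1/p53 line 1. The log2 fold change was 0.59 (SE 0.24, adjusted p = 0.209, edgeR) and 0.39 without Nf1/Cdkn2a line 3. Gpr137 overlaps 20.5% of its exon bases on the other strand at 14.2 to 39.5 CPM, which makes the level uncertain in the same way.

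Bmf (ENSMUSG00000040093, chr2:118528757-118549687, minus strand), which binds the dynein light chain DLC2, had the lowest level of the tested members. Its counts per line were 95, 17 and 92 in Nf1/p53 lines 1 to 3 and 82, 112 and 220 in Nf1/Cdkn2a lines 1 to 3, or 1.224, 0.2404 and 1.273 against 1.315, 1.615 and 3.441 CPM. The lines did not overlap, but Nf1/p53 line 3 (1.03 to 1.56 CPM, exact Poisson 95% interval, counting error only) and Nf1/Cdkn2a line 1 (1.05 to 1.63 CPM) differed by less than counting error. The log2 fold change was 1.22 (SE 0.71, adjusted p = 0.360, edgeR), and 0.69 without Nf1/Cdkn2a line 3.

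Bik (ENSMUSG00000016758, chr15:83526862-83544634, plus strand) was counted 0, 14 and 71 times in Nf1/p53 lines 1 to 3 and 4, 3 and 8 times in Nf1/Cdkn2a lines 1 to 3. Nf1/p53 line 3 held most of the reads, at 0.982 CPM, and in Nf1/p53 line 1 the count of 0 allows up to 0.0387 CPM, taken as 3 counts (the exact Poisson 95% interval reaches 0.0475 CPM). It did not pass the filter on low counts and has no genotype test.

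The cultures of a line allow a second question, how far members differ between lines of 1 genotype. In edgeR on the 18 cultures, where p measures only the spread between cultures, all 9 members other than Bik differed among the Nf1/p53 lines, against 73.2% of all genes tested, and 4 of the 9 among the Nf1/Cdkn2a lines, against 56.8%. Bik is left out of these counts, since it passed this fit's filter, set by line, only through the line where it is high. Among the Nf1/p53 lines Bcl2 ranged 3.89-fold (adjusted p = 3.15e-11) and Bcl2l11 2.08-fold (adjusted p = 1.75e-09), with opposite lines at the ends: Nf1/p53 line 3 was lowest for Bcl2 and highest for Bcl2l11, and Nf1/p53 line 2 was the reverse. Mcl1 (1.28-fold), Bcl2l1 (1.57-fold), Bcl2l2 (1.61-fold), Bid (1.49-fold), Bak1 (1.35-fold) and Bad (1.35-fold) spread less, and Bmf ranged 5.29-fold at its low counts. The members that differed among the Nf1/Cdkn2a lines were Bid (1.66-fold, adjusted p = 1.22e-06), Bad (1.68-fold, adjusted p = 0.00021), Bmf (2.62-fold, adjusted p = 0.00273) and Mcl1 (1.13-fold, adjusted p = 0.0254). Bcl2l1, Bcl2l2, Bcl2, Bak1 and Bcl2l11 ranged 1.10- to 1.22-fold there and were not called (adjusted p = 0.139 to 0.398), and without the cultures numbered 1 only 2 members were called. Whether a member's spread differed between the genotypes was not tested.

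In the order of the 6 lines by level, neighbors were taken as indistinct where the ranges of their 3 cultures met. Bid had the most steps, with 2 of 5 neighboring pairs meeting, and Bak1 and Bad the fewest, with 5 of 5 pairs meeting. Bcl2l1 and Bcl2l2 each had 3 pairs meeting, all of them within a genotype. The genes whose level over the 18 cultures was most like that of Bid, among 10305 genes with a mean of at least 5 CPM, were Nes (Pearson r = 0.986), Psmd4 (0.980) and Kat2a (0.976). The cultures share lines and genotypes, so these values describe the pattern over 6 lines.

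In 5 lists of genes around the family edgeR called 2 of 48 tested genes (4.17%), beside the 1.8% of all genes. Of the family's other p53 targets, Bbc3 (PUMA) was at 5.62, 9.208 and 8.468 CPM against 7.652, 7.717 and 6.788 CPM (log2 fold change -0.07, adjusted p = 0.895, edgeR), and Pmaip1 (NOXA), which binds MCL1, at 4.601, 3.041 and 2.408 against 6.93, 12.2 and 3.597 CPM (log2 fold change 1.18, adjusted p = 0.234). Of 11 further family genes 6 were tested and 0 called by edgeR, DESeq2 on the 6 lines or limma-voom (0 with an unadjusted p under 0.05 in edgeR), from Bcl2l13, a mitophagy receptor (-0.36, adjusted p = 0.281), to Bcl2l14 (1.05, adjusted p = 0.627), and the 3 Bcl2a1 genes in the table, which are near-identical copies, had 0 counts throughout. Whether reads shared by such copies were counted is not stated, so 0 counts do not show that the Bcl2a1 genes were silent.

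Of 15 apoptosome and caspase genes 0 were called by edgeR (3 with an unadjusted p under 0.05), 0 by DESeq2 on the 6 lines and 1, Casp2, by limma-voom, with 5 higher and 10 lower with a median log2 fold change of -0.11. The ends were Casp8, which cleaves BID (22.8 to 44.67 CPM in the Nf1/p53 lines and 52.08 to 57.35 CPM in the Nf1/Cdkn2a lines, log2 fold change 0.57, adjusted p = 0.261), and Casp2 (30.74 to 45.99 against 22.86 to 26.77 CPM, -0.58, adjusted p = 0.162). Of 6 inhibitors of apoptosis 0 were called by edgeR (1 with an unadjusted p under 0.05) and 1, Cflar, by both DESeq2 on the 6 lines and limma-voom, from Birc5, survivin (-0.19, adjusted p = 0.704), to Cflar, which encodes the caspase-8 inhibitor c-FLIP. Cflar was at 149.4, 118.8 and 61.96 CPM in Nf1/p53 lines 1 to 3 and 275.6, 223.2 and 288.3 CPM in Nf1/Cdkn2a lines 1 to 3, without overlap (1.25, SE 0.32, adjusted p = 0.0931 in edgeR, 0.0104 in DESeq2 on the 6 lines and 0.000342 in limma-voom).

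Of 18 genes for partners and regulators of the members, 1 was called by edgeR and by DESeq2 on the 6 lines, and 3 by limma-voom (Pim1, Akt1 and Ddit3). Pim1, a kinase that phosphorylates BAD, was at 20.43, 20.32 and 21.99 CPM in Nf1/p53 lines 1 to 3 and lower, at 8.117, 7.89 and 7.585 CPM, in Nf1/Cdkn2a lines 1 to 3 (log2 fold change -1.41, SE 0.18, adjusted p = 0.0287, edgeR). Its lines were close within each genotype, and the call was lost without any 1 line (adjusted p = 0.0511 to 0.124). The highest of the list was Akt1, another BAD kinase, at 387.6, 358.2 and 233.3 against 460.6, 511.9 and 462.7 CPM (0.55, adjusted p = 0.196). Of the 12 proliferation genes 11 were lower and 0 called by edgeR (2 with an unadjusted p under 0.05), 1 by DESeq2 on the 6 lines and 2 by limma-voom, from Ccna2 (-0.73, adjusted p = 0.0779) to Rrm2 (0.17, adjusted p = 0.572).

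**Figure D4:**
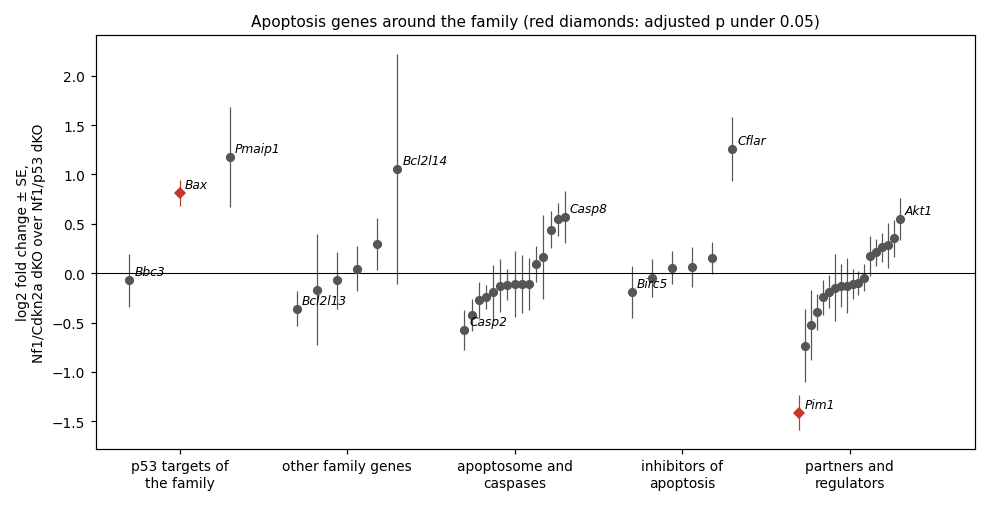
Log2 fold change with standard error, Nf1/Cdkn2a dKO over Nf1/p53 dKO, of the tested genes in 5 lists around the members, with called genes as red diamonds. Bax (0.81) and Pim1 (-1.41) are the called genes, and Cflar (1.25) is the highest of the inhibitors of apoptosis.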

How the data were processed

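Per the labels, RNA was extracted with Trizol and a company prepared the libraries. The submitters' processing notes name CASAVA, STAR 2.5 and DESeq2 1.14.1 and the builds GRCm38 and mm10, without their roles. The counting tool, its annotation and its use of strand are not given in the sources used here. The authors deposited raw counts, whole numbers of reads per gene and culture, without normalization. The study's statistics section gives 2 biological replicates per condition, while the labels give 3 lines in 3 cultures each.

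Counts of the 3 cultures of a line, which share a tumor, were added. Genes were kept with filterByExpr (minimum count 10, minimum total 15), TMM-scaled and tested with edgeR 4.0.16 (quasi-likelihood, two-sided, Benjamini-Hochberg). With 3 lines per genotype an exact permutation test cannot go under p = 0.1. DESeq2 1.42.0 and limma 3.58.1 (R 4.3.3) were alternatives. Gene positions and exon lengths are from GENCODE M21. Named genes were all members, Bax, Bbc3, Pmaip1, the targeted genes, and from each list around the family the called genes and the highest and lowest log2 fold change (of the marker lists, the called genes and those that define a sum). The members and lists were chosen with earlier results of these data known. One marker gene is not reported here. Only the edgeR genotype test on summed lines was tried on simulated data, with changes larger than those estimated for the members.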

Additional observations from a re-analysis of the deposited data

Results flagged for a closer look

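Among the 9 cultures of each genotype, 20 groups of values (10 members in 2 genotypes) were searched for a culture far from the others by Dixon's criterion, which chance meets in about 1 of 20 groups. Bcl2l2 was lowest in Nf1/Cdkn2a line 1, in its culture 1 (27.29 CPM), where the other 8 cultures had 34.41 to 41.45 CPM. Bak1 was highest at 83.2 CPM in culture 2 of the same line, where the other 8 had 59.05 to 69.46 CPM. Both cultures belong to 1 line, whose Bcl2l1 level also ran from 130.8 to 173.4 CPM between cultures. By chi-square per degree of freedom over the genes, culture 1 of that line differed most from its sister cultures. Its pairs had 24.7 and 27.1, against 3.5 to 12.9 for other pairs within a line. The 9 cultures come from 3 lines, so they are not 9 independent samples.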

How the results depend on the processing

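The edgeR test on 6 lines called 274 genes and 0 members. DESeq2 on the 6 lines called 2055 genes and 3 members, limma-voom treating line as random 2173 and 4, edgeR on 18 cultures 6096 and 7, and DESeq2 on 18 cultures 7171 and 7. The 18-culture tests take cultures of a line as separate samples. Raw total counts, which shifted the median gene by -0.134 (log2), called 423 genes and 1 member, and no filter 411 genes and 1 member (Bid both times). With a line left out 0 to 172 genes were called (0, 2 and 23 without Nf1/Cdkn2a line 1, 2 or 3 and 172, 27 and 107 without Nf1/p53 line 1, 2 or 3) and 0 members each time. Blocking on the line number called 0 genes, and the culture number as a block called 5681 genes and 7 members. Same-numbered lines (r = -0.117, -0.13 and -0.0832) and cultures (median r = -0.00372) did not deviate together, so these values show no pairing by number. With so few lines they cannot establish that none exists, and a shared batch was not tested. With a line left out the log2 fold change of Bcl2 ran from -0.72 to 0.15 and that of Bak1 from -0.20 to 0.020, both turning positive without Nf1/p53 line 2, and the other 7 tested members kept their direction under all 17 alternatives. Among the Nf1/Cdkn2a lines 4 members differed, and 2 to 3 with a culture number left out. Why the tests differ in their counts was not tested. Counts were lowest for Bmf, at 17 to 220 per line, and Bik, at 0 to 71, so counting error weighs most on these members.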
